A study of Mus musculus with 12 samples.

Results

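Cytosolic ribosomal protein genes encode the protein part of the ribosome outside mitochondria. They were taken from the table by name, as symbols starting with Rpl or Rps and a digit, the stalk genes Rplp0, Rplp1 and Rplp2, and Rpsa, without pseudogene names ending in -ps and without the S6 kinases (Rps6k). This gave 89 of 11911 genes in the table. They comprise 77 core ribosomal proteins (46 of the large or 60S subunit, 31 of the small or 40S subunit), 5 paralogues (Rpl22l1, Rpl3l, Rpl36al, Rps27l, Rpl7l1), 6 intronless copies or near copies (Rps4l, Rpl6l, Rpl32l, Rps3a3, Rpl37rt, Rps27rt) and Rps19bp1, which binds Rps19 and is no ribosomal protein. GENCODE M21 annotates 84 of the 89 as protein coding and 5 of the copies (Rps4l, Rpl6l, Rpl32l, Rps3a3, Rpl37rt) as processed pseudogenes, which the name rule did not remove.

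The libraries were bulk RNA-seq of mouse heart neutrophils, 800 cells each, sorted from digested left ventricles by the gate CD45.2+Ly6G+CD64-RFP+. The 6 libraries of genotype Control carry the numbers 2, 6, 7, 8, 11 and 12, and the 6 of genotype LOY, the study's term for loss of the Y chromosome, carry 3, 4, 5, 10, 14 and 15. The treatment label read Control in both groups, and every title names Control BMT. Strain, age and the way the chromosome was lost are not stated in the labels, nor do they say that each library came from another mouse, so p-values measure only the spread between these libraries, which may be technical.

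A ribosome holds 1 copy of nearly every core protein, so cells make these proteins in matched amounts. Their mRNAs share a 5′ terminal oligopyrimidine tract, a run of C and T letters at the transcription start through which mTORC1 and LARP1 control translation. Neutrophils leave the marrow as cells that no longer divide, with few ribosomes compared with their dividing precursors.

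Y-linked genes separated the groups: their summed level was 1032 to 1972 normalised reads in Control and 0 to 59.3 in LOY. Depth was 7176250 to 12561174 reads of listed genes in Control and 6767108 to 10203723 in LOY. Neutrophil markers summed to 266288 to 688315 normalised reads in Control and 247401 to 458521 in LOY, although Ly6g itself averaged 436 ± 391 (SD, n = 6) in Control and 185 ± 244 (SD, n = 6) in LOY. RNA of other cells was present in both groups. All 14 tested cardiomyocyte markers had a higher mean in LOY; the marker sum of 15 genes was 4776 to 8014 in Control and 4918 to 67348 in LOY, highest in LOY 10. Summed endothelial markers (12 of 13 in the table) ran from 1064 to 4097 in Control and from 2951 to 6702 in LOY, and fibroblast markers (10 of 10) from 3652 to 10914 and from 5957 to 16784. Macrophage markers (14 of 16) reached 95606 in LOY 15 against at most 61626 elsewhere. Lyz2 alone averaged 35027 normalised reads in Control and 36966 in LOY, the larger part of the macrophage sums. Gsn averaged 6235 and 6562, the larger part of the fibroblast sums. Whether the reads of Lyz2 and Gsn came from other cells was not tested. All 7 tested fibroblast markers had a higher mean log2 level in LOY. B cell markers (10 of 10) ran from 3887 to 24110, MHC class II and dendritic markers (8 of 9) from 5855 to 47175, and red cell and platelet markers (7 of 9) from 13.6 to 9765 over the 12 libraries. Of 14 T and NK cell markers 2 were in the table, at 0 to 658 in sum. Ribosomal protein mRNA is made by all of these cells; their part in the results below was not tested.

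The start sites were searched for the pyrimidine tract. RefSeq promoters (GRCm38.p6, 250 bases before to 50 after a start) were matched for 66 of the 89 genes, giving 78 promoters. In 40 of them (51.3%) a run of at least 7 C or T letters touched the 15 bases on either side of the start, against 25.5% of 32851 promoters. The median run was 7 letters long, against 5 in all promoters, and the longest was 21. Each line gives 30 bases on the gene's own strand, the first 15 before the start, with the run in capitals. They are shown for Rps27 and Rps9, the 40S genes of highest summed reads, and for Rplp2, Rpl35a, Rps24 and Rpl22l1, which were among the members of smallest p or the paralogues.
Rps27, chr3:90213634-90213663 (minus strand): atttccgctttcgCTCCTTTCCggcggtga
Rps9, chr7:3704026-3704055 (plus strand): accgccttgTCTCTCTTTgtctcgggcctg
Rplp2, chr7:141447636-141447665 (plus strand): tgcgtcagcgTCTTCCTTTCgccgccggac
Rpl35a, chr16:33056467-33056496 (plus strand): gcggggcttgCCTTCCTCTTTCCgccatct
Rps24, chr14:24490663-24490692 (plus strand): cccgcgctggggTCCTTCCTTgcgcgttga
Rpl22l1, chr3:28805493-28805522 (plus strand): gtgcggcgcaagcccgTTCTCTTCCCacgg

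No run of 7 was found around the annotated start of Rpl41, a core gene, or of the paralogues Rpl7l1 and Rpl3l, which are given for contrast. RefSeq starts can lie some bases from the start a cell uses, and Rpl35a, Rps24 and Rpl3l have further entries.
Rpl41, chr10:128549154-128549183 (minus strand): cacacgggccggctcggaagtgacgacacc
Rpl7l1, chr17:46782642-46782671 (minus strand): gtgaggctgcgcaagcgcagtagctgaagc
Rpl3l, chr17:24727811-24727840 (plus strand): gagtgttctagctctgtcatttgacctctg

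Other letters were also searched on both strands over the whole promoters. CCGGAAG, the core of ETS factor sites, was in 26 of 78 promoters (33.3%) against 8.86% of all promoters. AAGATGGC, a YY1-type motif, was in 8 (10.3%) against 2.75%. TATAAA was in 8 (10.3%) against 13.6%. CTTCCGG, the reverse complement of CCGGAAG, begins with pyrimidines and can overlap such a run.

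Levels are given as normalised reads, that is reads divided by 1 factor per library. Of the 89 genes, 80 had at least 10 normalised reads in all 12 libraries. Together they took 0.538% to 1.41% of the listed genes' reads in Control and 0.562% to 1.11% in LOY. Counted per kilobase of annotated exon, Rps27 was highest with a mean of 3151 normalised reads, and Rps29 with 2254, Rps9 with 2042, Rpl36 with 1932 and Rpl41 with 1888 were also among the highest. The order among these was not fixed across libraries: Rps9 was above Rpl36 in 6 of 12 libraries, and Rpl36 above Rpl41 in 6. Rps27 was above Rps29 in 10, and Rps29 above Rps9 in 9. At the other end of the core genes stood Rps15a with 46.3 normalised reads per kilobase. Lengths are of all annotated exons merged, so a gene with many transcripts is set low on this scale.

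**Figure D1:**
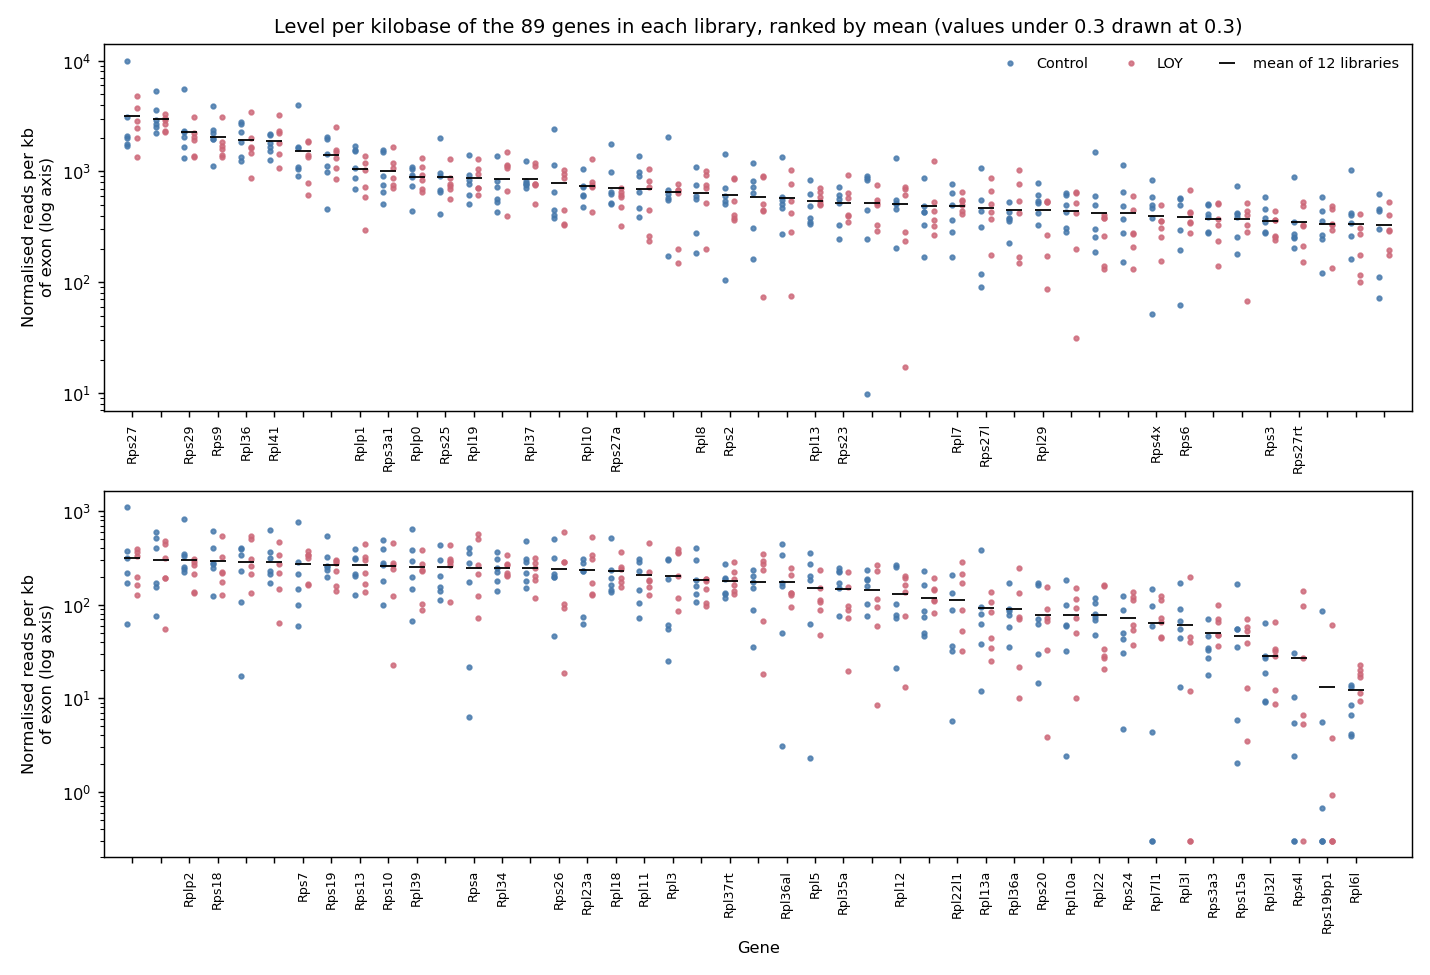
Each point is 1 library, with genes named in the text labelled; the y axis is normalised reads per kilobase of exon on a log scale and the x axis lists the 89 genes by mean, with a bar at the mean of 12 libraries. Control and LOY points overlap for every gene, the means fall from 3151 at Rps27 to 12.4 at Rpl6l, and the lower row holds most of the genes with libraries near 0.

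The median standard deviation within groups, on the log2(normalised reads + 1) scale, was 0.86 over the 87 tested members and 2.37 over all 6951 tested genes; the members' median mean level was 607 normalised reads against 275 over all tested genes. Among the narrowest were the 60S gene Rpl37 at 0.37, the 40S gene Rps3 at 0.39 and the 60S gene Rpl13 at 0.40. The widest were Rpl7l1 at 2.84 and Rpl3l at 2.60. Among genes often used as references in quantitative PCR, chosen here after their values were seen, Rplp0 had a spread of 0.44 and ran from 723 to 1832 normalised reads in Control and from 1091 to 2185 in LOY. Rpl13a ran from 25.5 to 810 in Control and from 53.5 to 290 in LOY. Rps18 ran from 302 to 1492 and from 312 to 1343. Of these, Rplp0 thus varied least, and none separated the groups.

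**Figure D2:**
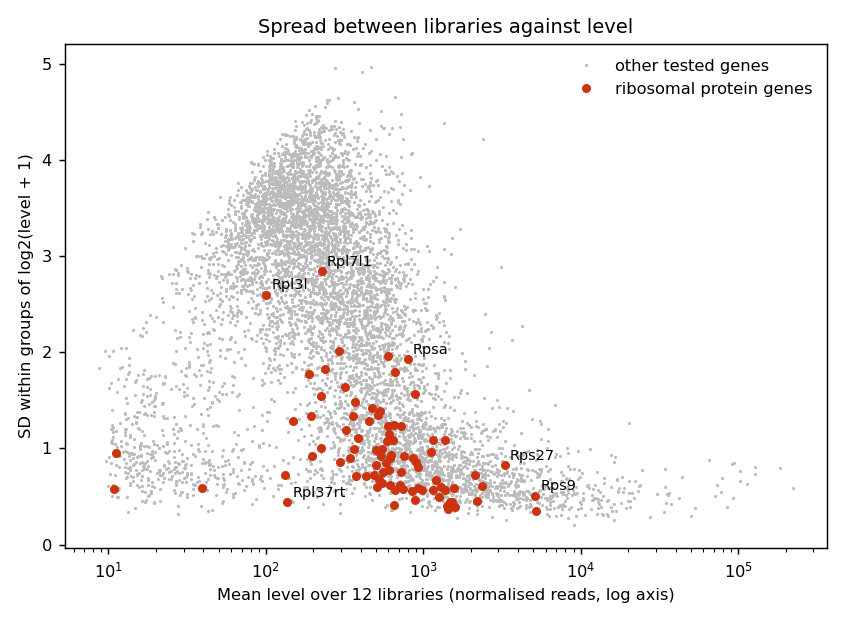
Each dot is 1 of the 6951 tested genes, by its mean normalised reads over 12 libraries (x, log axis) and the standard deviation within groups of its log2(level + 1) (y). The 87 ribosomal protein genes, in red, lie mostly toward the right and low; Rps9 is at 0.51 and Rpl7l1 at 2.84.

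The groups were then compared to ask whether neutrophils of the LOY genotype hold other amounts of ribosomal protein mRNA. The test was limma on log2(normalised reads + 1), adjusted by the Benjamini-Hochberg method over all 6951 genes that reached 10 normalised reads in 6 or more libraries; Rps4l and Rps19bp1 did not pass that filter. None of the 87 tested members was called at an adjusted p of 0.05, where 2 of 6951 genes (0.0288%) were. At an unadjusted p under 0.05 there were 0 of 87 members by limma against 304 genes (4.37%). By edgeR there were 1 (Rpl6l) of 87, against 126 of 7062 genes (1.78%), and no gene of the table was called after adjustment (0.0%). By DESeq2 there were 0 of 88 members, against 979 of 9723 genes (10.1%) unadjusted and 303 (3.12%) adjusted. The authors' deposited table gives a p-value for 88 members; the lowest adjusted one is 0.746.

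No member had groups that did not overlap, which 14 of 6951 genes had (0.201%). LOY had the higher mean log2 level in 43 members and the lower in 44. The median log2 difference, LOY minus Control, was -0.03 against 0.01 over all tested genes. The libraries' own medians over the members had a standard deviation within groups of 0.48. In bulk RNA, fewer cells of a type and less RNA per cell cannot be told apart.

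A p above the threshold does not show equal levels, so the 95% intervals of the limma differences are given. They lay within 1 log2 unit of 0, a change of less than 2-fold either way, for 16 of 87 members (18.4%), against 395 of 6951 genes (5.68%). All 16 are core genes and lie at or above the members' median mean level: 9 of the 60S subunit (among them Rpl37, Rpl13, Rpl34, Rplp0, Rpl10, Rpl41, Rpl19 and Rpl18) and 7 of the 40S subunit (Rps3, Rps9, Rps3a1, Rps29, Rps25, Rps13, Rps27). For Rps9 the interval ran from 0.539-fold to 1.28-fold. For the other members the interval included a change of 2-fold or more.

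**Figure D3:**
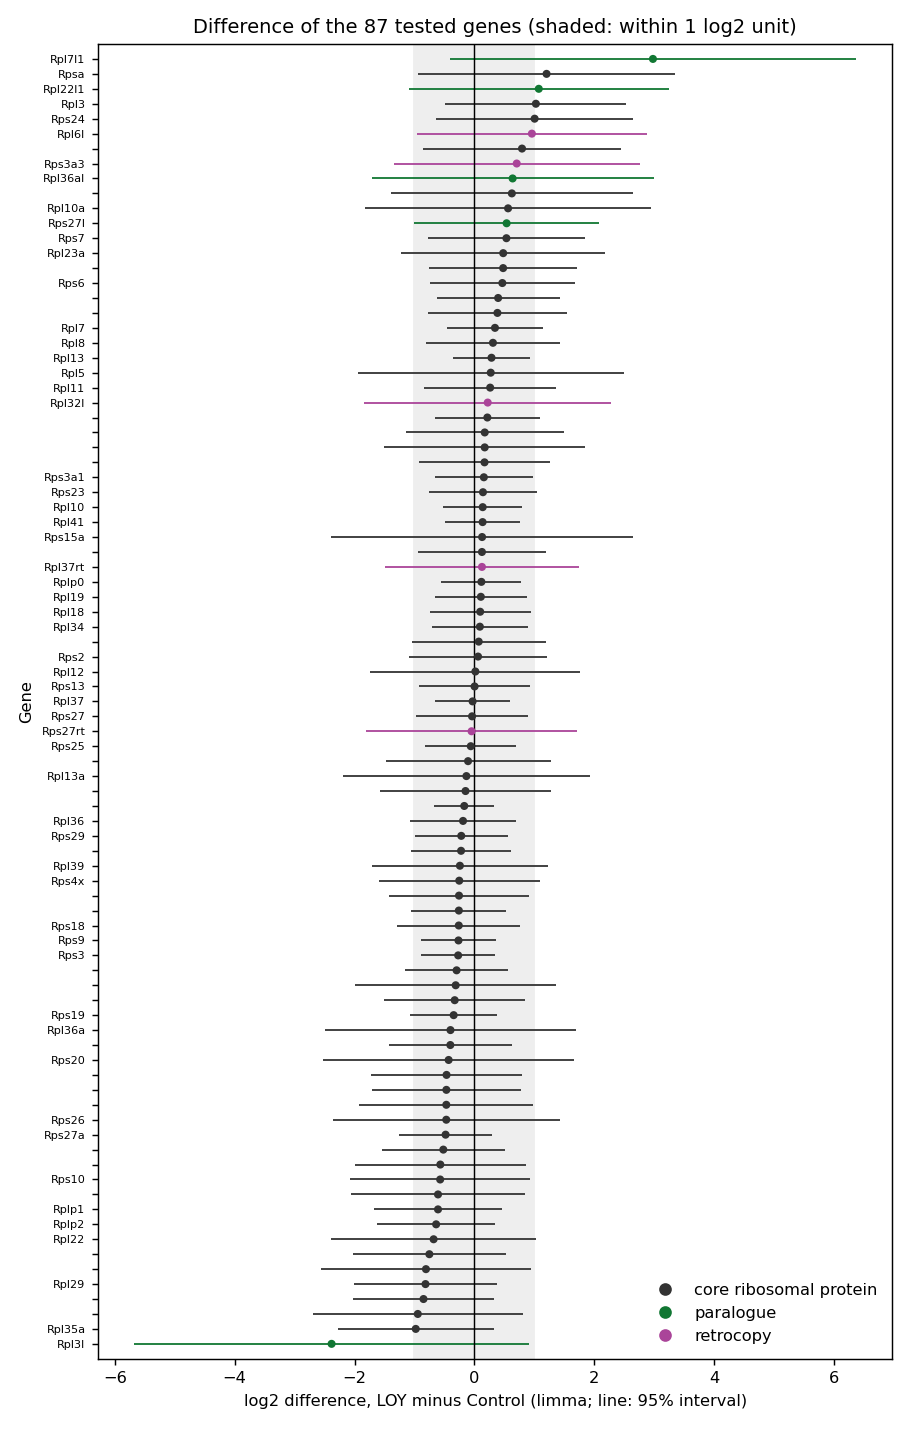
Points, labelled where the text names the gene, give the limma difference LOY minus Control in log2(normalised reads + 1) for the 87 tested genes, lines the 95% interval, and the shaded band 1 log2 unit on either side of 0. Every line crosses 0; 16 lie inside the band, and the widest belong to Rpl7l1 at the top and Rpl3l at the bottom.

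The summed level of all 89 genes was 64714, 74697, 45458, 128390, 67795 and 76830 normalised reads in Control 2, 6, 7, 8, 11 and 12. In LOY 3, 4, 5, 10, 14 and 15 it was 71553, 58585, 43149, 79928, 70920 and 91499. The groups overlapped, at 76314 ± 27835 (SD, n = 6) in Control and 69272 ± 16806 (SD, n = 6) in LOY. Each group held 1 library well below the others, Control 7 and LOY 5, and 1 above them, Control 8 and LOY 15.

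The same libraries stood apart gene by gene. Control 8 held the highest level of 40 of the 87 tested members (46.0%) but of 16.9% of all tested genes, and LOY 15 that of 19 members (21.8%) against 9.14%. LOY 5 held the lowest level of 27 members (31.0%) against 9.86% of all tested genes, Control 7 that of 23 (26.4%) against 11.8%, and LOY 4 that of 11 (12.6%) against 9.35%. The median deviation of the members from their own 12-library mean, in log2, was 1.00 in Control 8, 0.54 in LOY 15, -0.61 in Control 7 and -0.68 in LOY 5. Over all tested genes it was -0.02, 0.24, 0.28 and 0.12 in these libraries. In these libraries, picked for their high or low sums, the members' median lay further from 0 than that of all tested genes. In every other library it lay nearer 0, for example 0.153 against 0.516 in Control 11 and 0.244 against 0.541 in LOY 3.

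The shift in Control 8 was not shared by all members: 65 of 87 lay above their own mean. Rps27, a zinc-binding 40S protein, reached 10411 normalised reads there against 3259 in the next Control library. By contrast Rpl3, at the catalytic core, was at 79.8 normalised reads, the lowest of the 12 libraries, Rpsa at 68.4 and Rplp0 at 723, also its lowest. Control 8 also had the largest share of reads in its 10 most abundant genes (26.7%, then 23.4% in LOY 15, and 11.5% to 18.6% in the other libraries) and the highest sum of neutrophil markers. Whether these play a part was not tested.

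The low libraries also held single genes far below the rest of their group. In Control 7, Rpl5 was at 9.11 normalised reads, Rpl10a at 5.80, Rpl36al at 4.14, Rpsa at 19.9 and Rps24 at 29.0. These genes had medians of 146 to 757 in Control. In LOY 5, Rps10 was at 52.4 normalised reads where the other LOY libraries had at least 287, Rps20 at 15.8 and Rps26 at 28.7. Other members held their level there: Rps9 was at 5924 in Control 7, above the Control median of 5324, and Rpl19 at 965 in LOY 5, above the LOY median of 847. So even in these libraries the shift was uneven between genes of 1 complex.

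**Figure D4:**
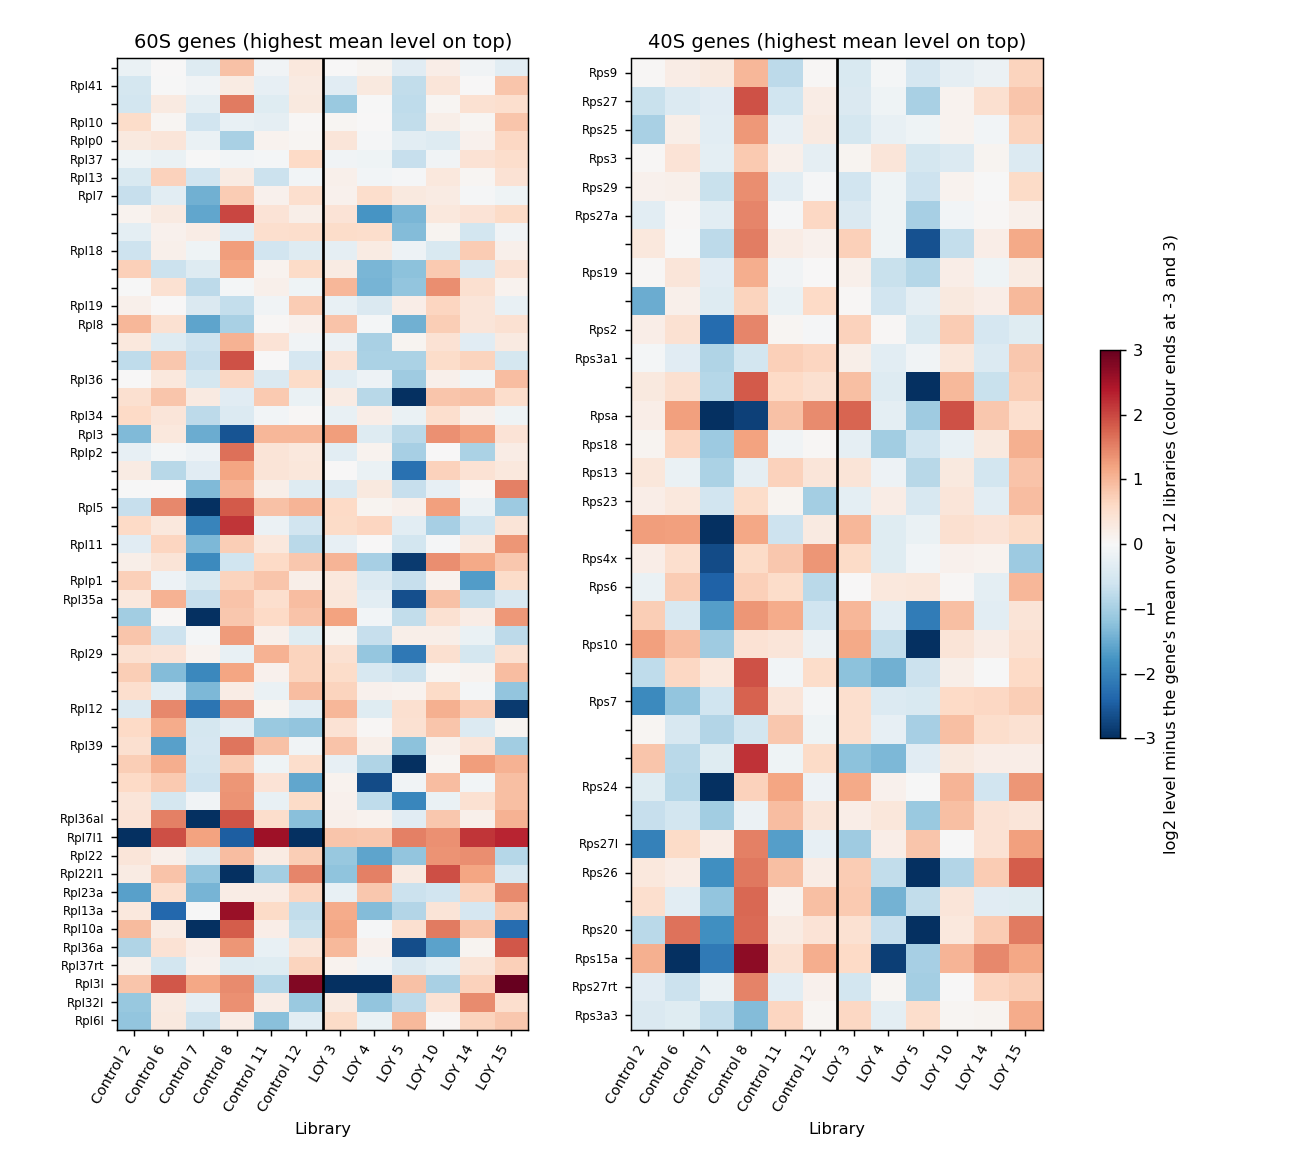
Rows are the 87 tested genes by subunit, ordered by mean level and labelled where the text names them, and columns the 12 libraries (Control left of the line, LOY right); colour is the log2 level minus the gene's 12-library mean, ending at -3 and 3. Control 8 is red for 65 of 87 genes with some dark blue rows, such as Rpl3 and Rpsa, while Control 7 and LOY 5 are mostly blue.

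In the balance of the subunits, Control 8 and LOY 15 stood apart, while Control 7 and LOY 5 did not. The summed 60S level exceeded the summed 40S level in every library but Control 8. The ratio was 1.29, 1.25, 1.20, 0.906, 1.28 and 1.26 in Control 2, 6, 7, 8, 11 and 12, and 1.28, 1.31, 1.30, 1.37, 1.32 and 1.02 in LOY 3, 4, 5, 10, 14 and 15. The means were 1.20 ± 0.146 (SD, n = 6) in Control and 1.27 ± 0.125 (SD, n = 6) in LOY, and the groups overlapped. Rps9, Rps25 and Rps27 held 25567 of 67365 normalised 40S reads in Control 8, but also 9865 of 20684 in Control 7, whose ratio was 1.20. Without these 3 genes, chosen after their values were seen, the ratio was 1.46 in Control 8, 1.59 in LOY 15 and 1.64 in Control 11, the lowest values, and at most 2.29, in Control 7.

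**Figure D5:**
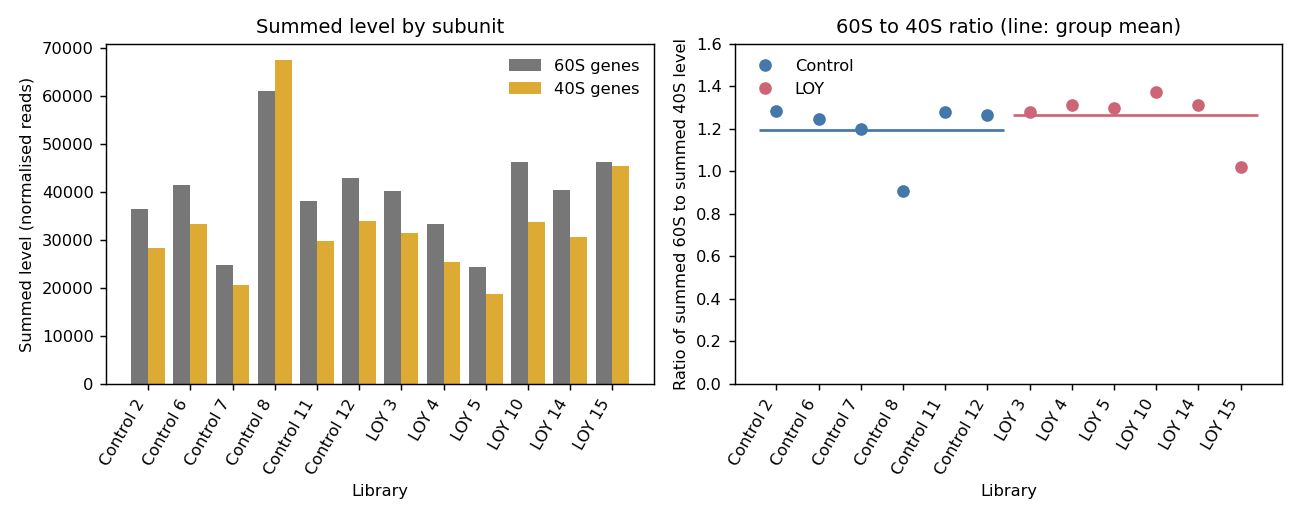
Left, summed normalised reads of the 60S genes (grey) and 40S genes (yellow) in each library; right, their ratio per library with a line at each group's mean. Control 8 is the 1 library with more 40S than 60S reads (67365 against 61025), and LOY 15 is next at a ratio of 1.02.

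By role, the 60S stalk, which recruits elongation factors, consists of Rplp0, Rplp1 and Rplp2 on a base with Rpl12. Rplp2 ran from 461 to 1731 (median 608) normalised reads in Control and from 276 to 641 (median 496) in LOY. Its log2 difference was -0.64 (SE 0.46, adjusted p = 0.997 by limma), and Control 8 alone lay above 723; without it the difference was -0.37. Rplp1 had a difference of -0.61, Rplp0 of 0.12 and Rpl12 of 0.02, so the differences of the stalk genes did not share a sign.

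Rpl3, Rpl8, Rpl10 and Rpl10a sit at or near the catalytic core and the L1 stalk, and all 4 had a higher mean log2 level in LOY without passing the test. The shared sign rests in part on single libraries. For Rpl10 the difference was -0.016 without LOY 15. Rpl10a was at 5.80 normalised reads in Control 7, far below its Control median of 146. Rpl3 ran from 79.8 to 970 (median 399) in Control and from 275 to 1263 (median 891) in LOY, a log2 difference of 1.03 (SE 0.70, adjusted p = 0.997 by limma). The groups overlapped between 275 and 970, and without Control 8 the difference was 0.61. The 9 genes around the exit tunnel and exit site, through which the new protein leaves, were split 5 to 4, with differences from -0.68 (Rpl22) to 0.48 (Rpl23a).

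Rpl5 and Rpl11 form the 5S particle with 5S rRNA and, when not built into ribosomes, bind Mdm2 and so stabilise p53. Rpl5 ran from 9.11 to 1397 (median 757) normalised reads in Control and from 185 to 927 (median 429) in LOY. Its log2 difference of 0.27 (SE 1.03) rests on Control 7, the library at 9.11: without it the difference was -0.76. Exons of Rpl5 also overlap those of Fam69a by up to 953 bases, which unstranded reads cannot separate. Rpl11 ran from 194 to 832 (median 503) in Control and from 340 to 1248 (median 491) in LOY, a difference of 0.26 (SE 0.52), with LOY 15 far above the other LOY libraries. Among other genes of that checkpoint, Mdm2 differed by 0.45 (SE 0.49) and Hexim1 by -2.20 (SE 1.33). Of the 6 tested genes of the list, which counts Rpl5 and Rpl11 themselves, 0 had a limma p under 0.05.

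In the 40S subunit, Rps2, Rps3 and Rps23 lie where mRNA enters and is decoded, and they differed by 0.06, -0.27 and 0.14 in log2. Rps6, whose phosphorylation by S6 kinase is the usual readout of mTORC1, ran from 99.4 to 915 (median 634) in Control and from 443 to 1081 (median 612) in LOY, a difference of 0.47 (SE 0.56). The value of 99.4 is that of Control 7, and the next lowest Control library was at 310, so that library weighs heavily on the difference. Rps27a is made fused to ubiquitin and differed by -0.48 (SE 0.36). Rpsa, which is also known as the laminin receptor, ran from 19.9 to 1283 (median 721) and from 230 to 1815 (median 764), a difference of 1.20 (SE 1.00). Control 7 and Control 8 alone were under 100 in Rpsa, and without Control 7 the difference was 0.42.

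Genes mutated in Diamond-Blackfan anaemia, an inherited failure of red cell production, included Rps7, Rps10, Rps19, Rps24, Rps26 and Rpl35a besides the 5S pair. Of 7 tested genes on that list, which leaves out the 5S pair, 2 had a higher and 5 a lower mean log2 level in LOY. The list does not hold every gene mutated in this anaemia, so the split describes these 7 only. None of the 7 had a limma p under 0.05. Both genes of the 5S pair had a higher mean log2 level in LOY, but without Control 7 that of Rpl5 was lower. Rps24 ran from 29.0 to 781 (median 290) normalised reads in Control and from 230 to 865 (median 540) in LOY, a difference of 1.00 (SE 0.77), and of 0.40 without Control 7. Rpl35a ran from 265 to 882 (median 694) in Control and from 68.2 to 795 (median 327) in LOY, a difference of -0.98 (SE 0.61, adjusted p = 0.997 by limma), and of -0.55 without LOY 5. Rps19, the gene most often affected in patients, was steadier, at 934 to 2527 in Control and 655 to 1406 in LOY, with a difference of -0.35 (SE 0.34).

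Another gene of small p was Rpl29, a 60S protein. It ran from 371 to 894 (median 591) in Control and from 97.9 to 613 (median 450) in LOY, a difference of -0.82 (SE 0.56), and of -0.47 without LOY 5. The groups overlapped, with LOY 4 and LOY 5 lowest, and it did not pass the test.

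The 56 tested members with no role listed here, paralogues and copies included, had a higher mean log2 level in LOY in 25 and a lower one in 31, with a median difference of -0.05. None had a limma p under 0.05, and 12 had a 95% interval within 1 log2 unit of 0. Among all core genes the split was 22 higher to 24 lower for the 60S subunit and 13 to 18 for the 40S subunit, with medians of -0.07 and -0.15.

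The genes of highest level per kilobase are given next. Rps9, which keeps decoding accurate, ran from 2804 to 9741 (median 5324) in Control and from 3416 to 7748 (median 4154) in LOY, a difference of -0.27 (SE 0.29), and of -0.09 without Control 8. Rps27 ran from 1765 to 10411 (median 2147) and from 1413 to 4962 (median 2766), a difference of -0.04 (SE 0.44), and without Control 8 of 0.34. Rpl41, the shortest ribosomal protein, ran from 1468 to 2534 (median 2024) and from 1258 to 3783 (median 2349), a difference of 0.14 (SE 0.29). Rps29 differed by -0.22 (SE 0.36), with Control 8 at 3802 against at most 1601 in the other Control libraries, and Rpl36 by -0.19 (SE 0.41). The sign of the difference changed when 1 library was left out for Rps27, Rpl41, Rps29 and Rpl36, and under none of these removals for Rps9.

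The core genes on the X chromosome are of interest beside a missing Y. In humans Rps4x has relatives on the Y chromosome, but the mouse Y chromosome carries none. Rps4x (chrX:102184941-102189394) ran from 83.7 to 1361 (median 791) normalised reads in Control and from 253 to 805 (median 544) in LOY, a difference of -0.25 (SE 0.63). Rpl10 ran from 990 to 2156 (median 1380) and from 885 to 2636 (median 1528), a difference of 0.14 (SE 0.31). Rpl36a differed by -0.40 (SE 0.98) and Rpl39 by -0.24 (SE 0.69). None of the 4 X-linked genes passed the test, and all 4 changed sign under at least 1 alternative.

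Paralogues can replace a core protein in the ribosome, so their levels per kilobase were set beside the core gene. Rpl22l1 was above Rpl22 in 9 of 12 libraries, 3 Control and 6 LOY, with means of 112 and 77.0 normalised reads per kilobase. Without division by length their means were 222 and 224 normalised reads. The order of the means per kilobase thus rests on the merged exon lengths, 1989 bases for Rpl22l1 and 2911 for Rpl22. Rpl22l1 ran from 11.4 to 409 (median 124) normalised reads in Control and from 63.3 to 568 (median 257) in LOY, a log2 difference of 1.07 (SE 1.01). Rpl22 ran from 139 to 343 (median 224) and from 59.3 to 475 (median 90.2), a difference of -0.68 (SE 0.80). In 4 LOY libraries Rpl22 lay below 100, and in LOY 10 and LOY 14 above every Control library. The balance of this pair was not tested between groups.

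Rpl36al exceeded Rpl36a per kilobase in 10 of 12 libraries, 4 Control and 6 LOY, with means of 176 and 89.2. Its log2 difference between groups was 0.64 (SE 1.10), and without Control 7, where it had 4.14 normalised reads, -0.30. Rps27l, a p53 target, was below Rps27 in every library, with means of 470 and 3151 per kilobase, and ran from 74.0 to 881 normalised reads in Control and from 145 to 719 in LOY. Rpl7l1, a relative of Rpl7 found in precursors of the 60S subunit, was also below its partner in every library, with means of 64.6 and 485.

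Rpl7l1 had the smallest limma p of all members. It was at 0.725, 343, 205, 15.2, 520 and 0 normalised reads in Control 2, 6, 7, 8, 11 and 12, and at 158, 155, 252, 230, 395 and 435 in LOY 3, 4, 5, 10, 14 and 15. The LOY libraries were thus all above 150, while Control held both the highest value and 3 values under 20. The log2 difference was 2.98 (SE 1.58, adjusted p = 0.997 by limma). With 1 library left out it ran from 1.98 (without Control 12) to 3.79 (without Control 11), and without Control 6 or Control 11 the unadjusted limma p was under 0.05, with adjusted values of 0.975 and 0.985. DESeq2 and edgeR gave 0.58 and 0.56. The mean levels were 181 ± 217 (SD, n = 6) in Control and 271 ± 119 (SD, n = 6) in LOY, so the log2 difference comes from the libraries near 0. Rpl7 itself ran from 450 to 2076 (median 1155) and from 1115 to 1751 (median 1394), a difference of 0.34 (SE 0.37).

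Rpl3l is the form of Rpl3 found in striated muscle. It was at 71.8, 147, 90.3, 109, 21.6 and 279 normalised reads in Control 2, 6, 7, 8, 11 and 12, and at 0, 0, 74.2, 19.8, 65.2 and 328 in LOY 3, 4, 5, 10, 14 and 15. The log2 difference was -2.38 (SE 1.54, adjusted p = 0.997 by limma), while LOY also held the highest value; with 1 library left out it ran from -3.22 to -1.55 (without LOY 4). In the 3 libraries with the highest sums of cardiomyocyte markers, LOY 10 (67348), LOY 15 (15847) and LOY 3 (15823), Rpl3l was at 19.8, 328 and 0. The part of these cells in its level was not tested. Per kilobase Rpl3l was above Rpl3 in 2 Control libraries.

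The 6 copies were low. Rps27rt averaged 138 ± 96.2 normalised reads (SD, n = 6) in Control and 127 ± 55.3 in LOY, and Rpl37rt 131 ± 44.4 and 142 ± 43.8. Rps3a3 averaged 30.4 and 48.4, and Rpl32l 10.4 and 12.0. Rpl6l averaged 7.27 ± 3.73 in Control and 14.3 ± 4.47 in LOY (SD, n = 6 each), a limma log2 difference of 0.96 (SE 0.90). Its edgeR p was 0.0434 before adjustment and 0.9996 after it. Reads of such copies and of their parents are hard to tell apart. The same holds for 60 pseudogene rows of the table, which summed to 953 to 3043 normalised reads in Control and 1281 to 1864 in LOY, of which Rpl18-ps1 was highest with a mean of 143. Of 47 tested pseudogene rows 0 had a limma p under 0.05, and none was called. Exons of 39 members overlap another annotated gene, often a small nucleolar RNA within the gene.

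Genes of related processes were taken from lists. Ribosomal proteins outside the name rule included Fau, at -0.28 (SE 0.23) in log2, and Rack1 at 0.02 (SE 0.92). Another list held 20 genes, most of them of translation, taken as also carrying the oligopyrimidine tract. Their start sites are not shown here. Of these 20, 11 had a higher and 9 a lower mean log2 level in LOY, with a median difference of 0.23. The 2 with a limma p under 0.05 were Cct4, a chaperonin subunit, at 5.93 (SE 1.37), and Npm1, a nucleolar histone chaperone, at 3.49 (SE 1.23). Cct4 ran from 0 to 484 normalised reads in Control and from 324 to 1260 in LOY. Npm1 ran from 2.18 to 182 in Control and from 72.1 to 969 in LOY. Both had Control libraries near 0, which weigh heavily on a log2 difference. Eef2 differed by 0.55 (SE 0.44), Eef1a1 by -0.45 (SE 0.41) and Tpt1 by 0.07 (SE 0.31). No gene of these lists was called after adjustment.

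Of 18 tested genes of RNA polymerase I and rRNA processing, Nop56 differed by 2.74 (SE 1.06) and Polr1c by -4.68 (SE 1.82), both with a limma p under 0.05 before adjustment (0.0216 and 0.0220). Polr1c averaged 172 ± 123 normalised reads in Control and 62.2 ± 152 in LOY (SD, n = 6 each). Both groups held libraries at 0, and LOY held its highest value (371.8, against 340.5 in Control). Of 11 tested 60S assembly factors, Rsl1d1 at 4.77 (SE 1.44) and Gnl2 at 3.62 (SE 1.65) had such a p, on the higher side. Rsl1d1 ran from 0 to 14.2 in Control and from 4.22 to 897 in LOY, and Gnl2 from 0 to 58.3 and from 1.16 to 513. Of 6 tested 40S assembly factors 0 had such a p. Emg1 was at -1.99 (SE 1.35) and Bms1 at -1.57 (SE 2.05). In mTORC1 and translation control, 1 of 16 tested genes had one, the cap-binding factor Eif4e with 197 ± 152 normalised reads in Control and 603 ± 437 in LOY (SD, n = 6 each), and Eif4g1 was at 1.61 (SE 0.79). In ribosome quality control 0 of 9 had one, with Nemf at 0.93 (SE 0.67) and Rnf14 at 2.32 (SE 2.21). The adjusted limma p was 0.696 for Cct4 and 0.997 for Npm1, Nop56, Polr1c, Rsl1d1, Gnl2 and Eif4e.

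Mitochondrial ribosomal proteins, which build another ribosome, numbered 76 in the table, of which 49 were tested. LOY had the higher mean log2 level in 30 and the lower in 19, with a median log2 difference of 0.32. Of these, 1 had a limma p under 0.05 before adjustment, Mrpl15 at -3.95 (SE 1.38), and 0 were called. Mrpl15 ran from 5.07 to 259 normalised reads in Control and from 0 to 85.1 in LOY. The sums over all 76 genes were 12365 to 22609 normalised reads in Control and 11086 to 22593 in LOY, with the highest values in Control 8 and LOY 15, as for the cytosolic genes.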

How the data were processed

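RNA-seq of 12 sorted heart neutrophil libraries was read from 1 table of 11911 genes. Per the labels' protocols, cDNA was made with SMART-Seq v4 and libraries with Nextera XT, which keep neither strand nor molecular identifiers. The submitters' processing notes name bcl2fastq 2.17, Trimmomatic 0.36, STAR 2.5.2b, featureCounts of Subread 1.5.2, and the builds GRCm38 and mm10. The deposited signal columns hold each gene's reads scaled by the authors with a single factor for every library; the sources used here name no software for that scaling. Dividing by the smallest step gave whole reads for 100% of values above 0 (tolerance 0.01 read). The authors' deposited table also holds a log2 fold change, a p-value and an adjusted p-value per gene. Names are from the table, with 25 blank or date-like names replaced from GENCODE M21 (11896 identifiers matched), which also gave exon lengths and overlaps.

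limma 3.58.1 (trend, robust) was fitted to log2(normalised reads + 1) with an intercept and genotype, on 6951 genes that reached 10 normalised reads in 6 or more libraries, with a threshold of 0.05. Differences are on that scale. The added 1 shrinks changes of genes that are low in all libraries, while single libraries near 0 can enlarge a difference. For Rpl7l1 it was 2.98 by limma, 0.58 by DESeq2 and 0.56 by edgeR. Alternatives were edgeR 4.0.16 and DESeq2 1.42.0 on recovered reads, other filters, pseudocounts and scalings, array weights, and leaving libraries out. Replicate libraries were not duplicates (chi-square over degrees of freedom at least 177 for each pair). PCR copies count as reads. The script was tested on simulated data. Members and lists were chosen with earlier results of these data known. Values are given for the 5 tested members of smallest p per direction, the 3 of highest level per kilobase per subunit, X-linked members, Rpl5, Rpl11, paralogue pairs and the 2 to 4 genes of smallest p per related list; Eef2, Eef1a1, Tpt1 and role groups were added. Some members that fall under this rule are not reported here. Of the marker lists, sums are given in place of genes.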

Additional observations from a re-analysis of the deposited data

Results flagged for a closer look

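In 8 of 54 groups of 6 libraries, 1 library stood apart by Dixon's criterion (its gap to the nearest library over the group's range). For normally distributed values chance alone meets it in about 1 of 20 groups. Here it was applied to normalised reads and ratios, not to log2 levels, so that share need not hold. On this scale low libraries are flagged less easily than high ones. Control 8 held 4 of the 8. There Rps27 was at 10411 normalised reads (next Control library 3259), Rps29 at 3802 (1601) and Rplp2 at 1731 (723), and the ratio of the summed 60S to 40S genes was 0.906 (1.20). LOY 15 held the other 4. There Rps9 was at 7748 normalised reads (next LOY library 4675), Rpl11 at 1248 (598) and Rpl3l at 328 (74.2), and the 60S to 40S ratio was 1.02 (1.28). These results share 2 libraries and are not independent of each other.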

How the results depend on the processing

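No alternative called a member: the count was 0 under all 23. The median log2 difference of the members ran from -0.24 to 0.12 with 1 library left out and from -0.16 to 0.09 otherwise. The difference in log2 of the summed level ran from -0.24 to 0.06 with 1 library left out, and that of the 60S to 40S ratio from 0.01 to 0.15. With DESeq2, 303 genes of the table were called in place of 2, none a member. The number of members with a higher mean log2 level in LOY was 43 as reported, 28 without Control 7, 35 without LOY 15 and 54 without LOY 5.

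Of 25 named members, 15 kept their direction under each alternative run for them (14 alternatives for Rpl6l, 23 for the others). The values of those that changed sign follow; the cause was not tested. With 1 library left out, the log2 difference ran from -0.39 to 0.0023 for Rpl36 (LOY 5), from -0.017 to 0.30 for Rpl41 (LOY 15), from -0.21 to 0.34 for Rps27 (above 0 without Control 8, Control 12, LOY 3 or LOY 5), from -0.37 to 0.039 for Rps29 (Control 8), from -0.016 to 0.30 for Rpl10 (LOY 15), from -0.81 to 0.091 for Rpl36a (LOY 5), from -0.59 to 0.057 for Rpl39 (Control 8), from -0.76 to 0.67 for Rpl5 (Control 7) and from -0.30 to 1.08 for Rpl36al (Control 7). Without Control 8 and LOY 15, chosen after seeing the data, it was 0.17 for Rps27, 0.031 for Rps4x, -0.045 for Rpl10 and 0.24 for Rpl39, while Rpl5 kept its sign at 0.91. Without Control 7 and LOY 5, also chosen after seeing the data, it was 0.080 for Rps27, 0.091 for Rpl36a, -0.76 for Rpl5 and -0.17 for Rpl36al, while Rps4x kept its sign at -0.82. Quantile normalization gave 0.021 for Rps27, and array weights 0.18 for Rps27 and 0.037 for Rpl39. DESeq2 and edgeR gave 0.10 and 0.12 for Rpl36a, -0.54 and -0.53 for Rpl5, and -0.31 and -0.29 for Rpl36al. With 1 library left out and no change of sign, the difference ran from -1.03 to -0.43 for Rpl22 (LOY 14, LOY 4), from 0.47 to 1.48 for Rpl22l1 (Control 8, Control 12), from 0.18 to 0.90 for Rps27l (Control 2, Control 8), from 0.09 to 0.53 for Rpl7 and from 0.02 to 0.44 for Rpl11 (both Control 7, Control 8) and from -0.81 to -0.01 for Rps4x (Control 7, Control 12). The lowest adjusted p of a named member under any alternative was 0.809. No paired analysis was possible because Control and LOY libraries have no number in common. With 6 libraries of 800 cells per group, changes under 2-fold could be bounded for 16 members.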
